A study of Mus musculus with 9 samples.

Results

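Opn4, Spp1, Foxp1, Foxp2, Jam2, Mmp17, Tbx20 and Igf1 were examined as markers of retinal ganglion cell (RGC) subtypes, 8 genes of the 23997 gene symbols in the expression tables. They were chosen by name as genes that mark intrinsically photosensitive RGCs (ipRGCs), alpha RGCs, F-type RGCs and direction-selective RGCs. No threshold on their values was used, but earlier results of these data were known. RGCs were purified by immunopanning from C57BL/6J mice, 8 weeks old by the sample labels, after injection at 6 weeks of age. Control mice received saline into the anterior chamber of the eye. Mild IOP and Moderate IOP mice received microbeads, which impede aqueous outflow and raise intraocular pressure (IOP), the pressure being followed for 2 weeks. The paper states that microbead eyes were sorted by their measured rise in pressure, with the smaller rises forming the Mild IOP group. RNA of the mice of a group was pooled, with fewer retinas in the Moderate IOP pool than in the other pools by the paper's account. Each pool was split into 3 libraries, so each of the 3 groups holds 3 technical replicates of 1 pool of animals. Every test below therefore covers the spread between libraries of a pool and not the spread between mice, and a difference between groups is a difference between pools.

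RGCs are the output neurons of the retina, and they fall into many subtypes that differ in dendrite shape, light response and molecular markers. ipRGCs contain the photopigment melanopsin and carry brightness signals to the brain, alpha RGCs are large cells with thick axons, F-type RGCs are defined by Foxp transcription factors, and direction-selective RGCs respond to motion in a preferred direction. Glaucoma, in which RGCs degenerate under raised IOP or despite normal IOP, has been studied for differences in vulnerability between such subtypes. Several of these genes also have roles in other cells. Spp1 and Igf1 are made by activated microglia, and Jam2 is made by endothelial cells.

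Promoter sequences were shown for the marker that passed the test and for the steadiest marker. Of the 8 genes, 5 matched the RefSeq promoter table of GRCm38.p6, with 8 start sites in all, and Foxp2, Jam2 and Mmp17 had no entry. The 250 bases before the start site were read 5′ to 3′ on the gene's strand, at chr5:104434861-104435110 on the plus strand for the first start site of Spp1 and at chr14:34600143-34600392 on the minus strand for Opn4. Capitals mark a TATAAA match.
Spp1: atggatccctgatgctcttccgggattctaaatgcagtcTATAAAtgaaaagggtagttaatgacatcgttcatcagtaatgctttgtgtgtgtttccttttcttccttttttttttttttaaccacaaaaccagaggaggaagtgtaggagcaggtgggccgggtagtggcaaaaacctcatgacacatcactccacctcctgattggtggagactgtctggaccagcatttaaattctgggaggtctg
Opn4: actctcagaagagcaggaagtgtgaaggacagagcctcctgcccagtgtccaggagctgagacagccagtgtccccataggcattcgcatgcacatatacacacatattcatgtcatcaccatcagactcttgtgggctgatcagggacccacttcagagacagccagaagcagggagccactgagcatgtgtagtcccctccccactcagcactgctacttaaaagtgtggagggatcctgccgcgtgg
Both strands of the 8 windows were searched for 4 motifs. The TATA box, spelled TATAAA, occurred in the Spp1 window alone, beginning 211 bases before the start site, and 12.4% of the 32851 promoter windows in the table hold it. The AP-1 motif, spelled TGANTCA, occurred in the Igf1 window alone, beginning 37 bases before the start site, and 6.75% of the windows hold it. The E-box, spelled CACGTG, is held by 6.02% of windows and did not occur in the 8. The T-box motif, spelled AGGTGTGA, is held by 1.12% of windows and did not occur either. The matches found overlap no other. A match is a description of the letters and was not tested as a binding site.

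Expression is given in scaled FPKM, fragments relative to transcript length and to the mapped fragments of the library, as estimated by the authors, summed per symbol and divided by a scaling factor per library. Because FPKM is corrected for length, levels can be compared between genes. Opn4 was the highest of the markers in 7 of 9 libraries, with a mean of 24.0 scaled FPKM, above Spp1 at 18.9, Mmp17 at 13.8 and Jam2 at 6.97. Igf1 at 3.58, Foxp1 at 2.52, Foxp2 at 0.726 and Tbx20 at 0.220 were lower. Spp1 and Mmp17 exchanged places between libraries, and so did Igf1 and Foxp1, and Igf1 exceeded Jam2 in Moderate IOP replicate 3. The FPKM of Igf1 did not follow the fragments derived for it, as described below, so its place is less certain. Opn4 lay at the 85.0th percentile of all symbols and Tbx20 at the 40.8th.

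**Figure D1:**
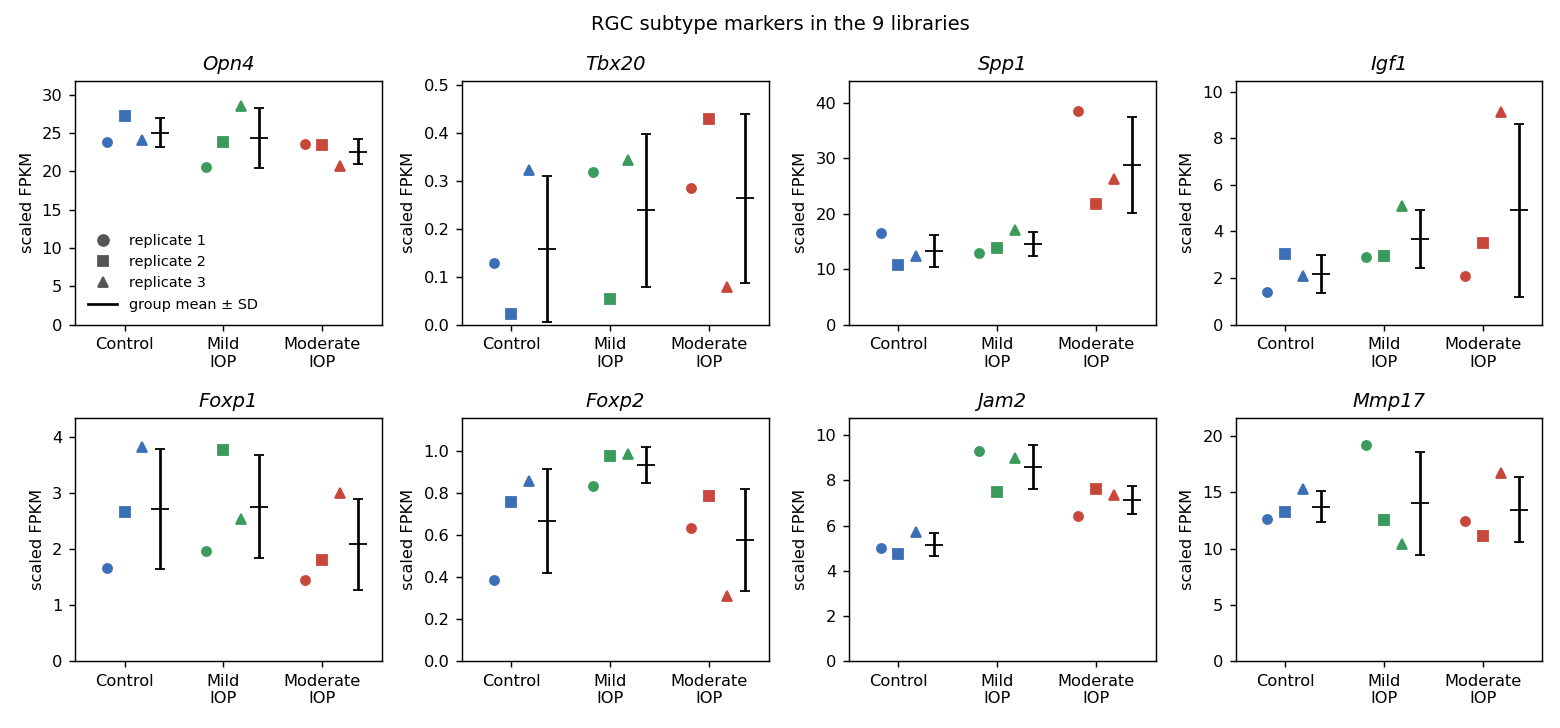
Scaled FPKM of the 8 subtype markers (y axis, from 0, a separate scale in each panel) in Control, Mild IOP and Moderate IOP libraries (x axis); each point is 1 library, its shape the replicate number, and the black bar is the group mean ± SD. The 3 Moderate IOP libraries of Spp1 sit between 21.8 and 38.5, above all Control and Mild IOP libraries, and the 3 Control libraries of Jam2 sit between 4.77 and 5.73, below all others.

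Counted over the 7 markers that passed the filter on low values (a mean of at least 0.5 scaled FPKM over all 9 libraries), few changed. A gene was called at a false discovery rate (FDR) below 0.1 by limma over the 13043 genes tested. In Mild IOP against Control 0 of 7 markers were called, against 0.399% of all genes, and 1, Jam2, had an unadjusted p below 0.05, which 10.2% of all genes had. In Moderate IOP against Control 1 of 7, Spp1, was called and was higher, against 1.84% of all genes. Moderate IOP against Mild IOP again gave 1 of 7, Spp1, higher in Moderate IOP, against 10.2% of all genes, so that a count of 1 is near this background. Spp1 was also the only marker with an unadjusted p below 0.05 in each of these comparisons, beside 15.3% and 21.8% of all genes. The 2 comparisons with Control share the Control libraries. Fewer cells of a type and less RNA per cell cannot be told apart in such pooled RNA.

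The groups did not overlap for 1 of the 8 markers in Mild IOP against Control (Jam2, higher), against 17.1% of genes tested. Moderate IOP and Control did not overlap for 3 (Spp1 and Jam2 higher, Opn4 lower), against 19.4%, and Moderate IOP and Mild IOP for 2 (Spp1 higher, Foxp2 lower), against 27.5%. The median log2 fold-change of the 7 tested markers was 0.14 in Mild IOP against Control, −0.04 in Moderate IOP against Control and −0.10 in Moderate IOP against Mild IOP, beside 0.01, 0.00 and −0.02 over all genes. All fold-changes are on the log2(scaled FPKM + 1) scale, which understates the change of low genes.

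**Figure D2:**
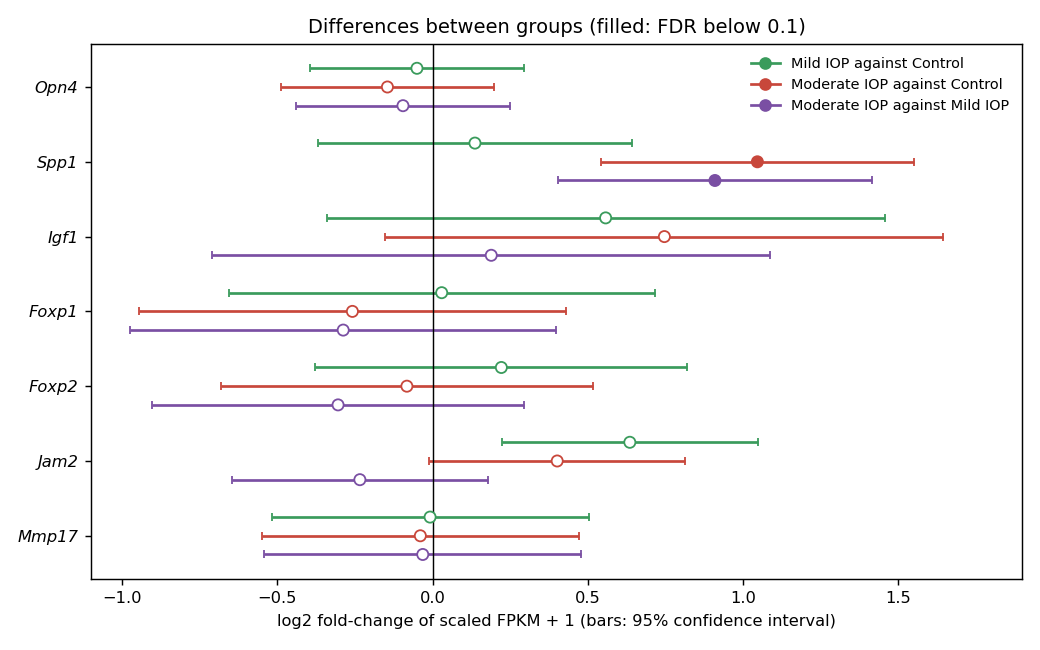
Log2 fold-change of scaled FPKM + 1 (x axis) of the 7 tested markers (y axis) in the 3 comparisons, as points with 95% confidence intervals; filled points have an FDR below 0.1. The 2 filled points are both Spp1, at 1.05 in Moderate IOP against Control and 0.91 in Moderate IOP against Mild IOP.

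Opn4 encodes melanopsin, the photopigment of ipRGCs (chr14:34590618-34600142, mm10). It stood at 23.9, 27.3 and 24.0 scaled FPKM in Control replicates 1, 2 and 3, at 20.6, 23.9 and 28.5 in Mild IOP, and at 23.6, 23.4 and 20.7 in Moderate IOP. The Mild IOP libraries lay on both sides of Control, whereas all 3 Moderate IOP libraries lay below the lowest Control library, replicates 1 and 2 narrowly and replicate 3 by about the width of the Control range. Group means were 25.1 ± 1.93, 24.3 ± 3.95 and 22.6 ± 1.66 (SD, n = 3 each), and the order Control, Mild IOP, Moderate IOP did not exceed the spread between libraries. Against Control, Mild IOP differed by −0.05 on the log2 scale (SE 0.156, 95% confidence interval −0.39 to 0.29, FDR = 0.948) and Moderate IOP by −0.15 (SE 0.156, −0.49 to 0.20, FDR = 0.706). These intervals allow a level between 0.713 and 1.15 times Control in Moderate IOP. Opn4 had the smallest variation over the 9 libraries of the markers, with a coefficient of variation of 10.8%. It rested on 225 to 471 fragments per library, derived from the confidence interval of the estimate and not counted.

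Tbx20, a T-box transcription factor reported in ipRGCs (chr9:24720812-24774303), was near the limit of measurement. It was listed at 0.129, 0.0230 and 0.323 scaled FPKM in Control, at 0.318, 0.0543 and 0.343 in Mild IOP, and at 0.284, 0.429 and 0.0780 in Moderate IOP. The groups overlapped fully, and each value rested on 0.0607 to 4.05 derived fragments, so that a change was not detectable at this depth. Tbx20 stayed below the filter and was not tested.

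Of 8 ipRGC genes 7 were tested and 0 called in each comparison. Rasgrp1, a Ras activator of ipRGCs and the next highest of the list after Opn4, measured 6.18 ± 0.920, 9.76 ± 1.58 and 7.50 ± 0.846 scaled FPKM in Control, Mild IOP and Moderate IOP, and its FDR was 0.308 and 0.596 against Control. Against Control the list had a median of −0.03 (Mild IOP) and −0.15 (Moderate IOP) on the log2 scale. The list of 10 genes of the melanopsin signalling pathway, which couples the photopigment through Gq proteins and phospholipase C beta 4 to TRPC channels, gave 0 calls of 9 tested in any comparison. Gna11, a Gq-class subunit, stood at 47.7 ± 10.7, 44.6 ± 0.773 and 47.6 ± 2.56 scaled FPKM, and Plcb4, the phospholipase, at 38.7 ± 5.35, 45.8 ± 3.23 and 36.3 ± 1.02. Of the T-box family, 5 genes were tested and 0 called, and its highest members Tbx2 and Tbx3 differed from Control with FDRs of 0.860 and 0.475 in Mild IOP.

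Spp1 encodes osteopontin, a secreted phosphoprotein that marks alpha RGCs and is also released by activated microglia (chr5:104435111-104441053). It stood at 16.5, 10.8 and 12.5 scaled FPKM in Control, at 12.9, 13.8 and 17.0 in Mild IOP, and at 38.5, 21.8 and 26.2 in Moderate IOP. All 3 Moderate IOP libraries lay above all 6 others, with replicate 1 well above its 2 partners, while Mild IOP overlapped Control. Group means were 13.2 ± 2.92, 14.5 ± 2.15 and 28.8 ± 8.68. Moderate IOP exceeded Control by a log2 fold-change of 1.05 (SE 0.229, 95% confidence interval 0.54 to 1.55, FDR = 0.0684), a fold-change of 2.07 that lies past 1.5. It exceeded Mild IOP by 0.91 (SE 0.229, 0.40 to 1.41, FDR = 0.0439), and Mild IOP differed from Control by 0.14 (SE 0.229, −0.37 to 0.64, FDR = 0.902). Values rested on 71.5 to 217 derived fragments per library.

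The Spp1 call depended on single libraries and on the fit. Against Control it was lost without Control replicate 1, 2 or 3, without Mild IOP replicate 1, and without Moderate IOP replicate 1 or 3, leaving 3 of 9 omissions in which it held, with log2 fold-changes of 0.83 to 1.22 and FDRs of 0.0812 to 0.189. Against Mild IOP it was lost without Mild IOP replicate 1 or 2 or Moderate IOP replicate 1, with log2 fold-changes of 0.69 to 1.08 and FDRs of 0.0457 to 0.144. The direction was the same in all omissions.

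Alpha RGC genes other than Spp1 did not pass the test: of 5 genes tested, Spp1 was called and 4 were not. Of all genes, 1.84% were called in Moderate IOP against Control and 10.2% in Moderate IOP against Mild IOP. Nefh, a neurofilament subunit rich in large axons, stood at 21.2 ± 2.49, 20.5 ± 1.41 and 27.2 ± 8.44 scaled FPKM in Control, Mild IOP and Moderate IOP (FDR = 0.974 and 0.508 against Control). Kcng4, a potassium channel subunit of alpha RGCs named here after its values were seen, stood at 3.53 ± 1.44, 4.99 ± 1.13 and 2.88 ± 1.27, with FDRs of 0.714 and 0.776. Its log2 difference from Control in Moderate IOP was −0.23. The other tested genes of the list lay on the other side, with 0.31 for Nefh, 0.15 for Tpbg (FDR = 0.777) and 0.13 for Il1rapl2 (FDR = 0.909). Of 9 osteopontin receptors, 3 were tested and 0 called, and Itgb1, a beta integrin subunit and the highest, stood at 6.34 ± 0.522, 8.03 ± 0.842 and 10.3 ± 0.769 (log2 fold-change 0.63 and FDR = 0.141 in Moderate IOP). Itgb5, another beta subunit, averaged 1.80, 3.24 and 2.44 (FDR = 0.545 and 0.708 against Control). Cd44, an osteopontin receptor, averaged 0.104 to 0.169 scaled FPKM and was below the filter.

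Because Spp1 and Igf1 are also microglial genes, microglia and macrophage markers were set beside them. The summed level of 11 such genes was 32.5 to 40.5 scaled FPKM in Control, 28.5 to 43.1 in Mild IOP and 45.4 to 50.4 in Moderate IOP. Of 9 tested, 0 were called against Control and 1, C1qc, a complement subunit, was higher in Moderate IOP than in Mild IOP (FDR = 0.0439), with group means of 13.1, 7.24 and 14.5 in Control, Mild IOP and Moderate IOP. Among all genes 10.2% were called in Moderate IOP against Mild IOP. C1qb, another complement subunit and the other leading gene of the list, averaged 8.89, 13.2 and 16.8 scaled FPKM, and its log2 difference from Control in Moderate IOP was 0.84 (FDR = 0.128). C1qa averaged 5.25, 3.10 and 9.24 (FDR = 0.513 against Control in Moderate IOP) and Itgam, an integrin of myeloid cells, 0.326, 0.505 and 1.20 (FDR = 0.485). Markers more restricted to resident microglia were low: Cx3cr1 averaged 0.991, 1.03 and 0.873 scaled FPKM and Tmem119 0.987, 1.47 and 1.59 in Control, Mild IOP and Moderate IOP, while P2ry12, below the filter, averaged 0.740, 0.549 and 0.0668. Csf1r averaged 3.03, 2.93 and 1.65, Cd68 1.73, 1.63 and 0.913, and Aif1 0.619, 1.73 and 0.638, none of them called. Ptprc, also below the filter, averaged 0.0311, 0.0610 and 0.169. The summed level in Moderate IOP thus lay above all Control and Mild IOP libraries, as it did for Spp1, while the single genes of this list went in different directions. Müller glia and astrocyte markers had summed levels of 38.7 to 45.3, 35.5 to 47.3 and 55.3 to 89.5, and Rlbp1, a retinoid-binding protein of Müller glia, was called higher in Moderate IOP than in Control (4.46 and 14.5 scaled FPKM, FDR = 0.0682). Glul, the glutamine synthetase of Müller glia and the highest of that list, averaged 30.0, 23.3 and 46.7 and was called higher in Moderate IOP than in Mild IOP (log2 fold-change 0.96, FDR = 0.0124), as Spp1 was. Their part in the Spp1 result was not tested.

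Igf1 encodes insulin-like growth factor 1, a secreted survival factor that marks a subset of alpha RGCs and is made by microglia as well (chr10:87859056-87937047). It stood at 1.40, 3.02 and 2.09 scaled FPKM in Control, at 2.92, 2.96 and 5.10 in Mild IOP, and at 2.07, 3.53 and 9.11 in Moderate IOP. The groups overlapped, and the Moderate IOP mean of 4.90 ± 3.72 was carried by replicate 3. On the log2 scale Mild IOP differed from Control by 0.56 (SE 0.409, −0.34 to 1.46, FDR = 0.716) and Moderate IOP by 0.75 (SE 0.409, −0.15 to 1.65, FDR = 0.416). Igf1 had 2 start sites in the tables.

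FPKM of Igf1 did not follow the derived number of fragments. The fragments behind a value can be derived from its confidence interval if the interval holds counting error only. An interval widened by anything else would read as fewer fragments, and no counts were at hand to check this. In proportion to FPKM and depth the derived fragments give the transcript length that the estimate implies. For the other 6 tested markers this length varied between libraries by a factor of 1.02 to 1.17, but for Igf1 by 4.24, from 1261 to 5347 nt. Mild IOP replicate 3 reached 5.10 scaled FPKM on 34.7 derived fragments, whereas Mild IOP replicate 1 reached 2.92 on 100.1. Counted instead as derived fragments relative to library depth, in units of 1 per 1000000 fragments, Igf1 was at 3.09, 5.78 and 8.05 in Control, 15.1, 15.3 and 6.71 in Mild IOP, and 7.93, 18.9 and 15.0 in Moderate IOP, so that Mild IOP replicate 3 went from the highest of its group to the lowest. The part of transcripts of different length, or of a wider interval, in these values was not tested.

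**Figure D3:**
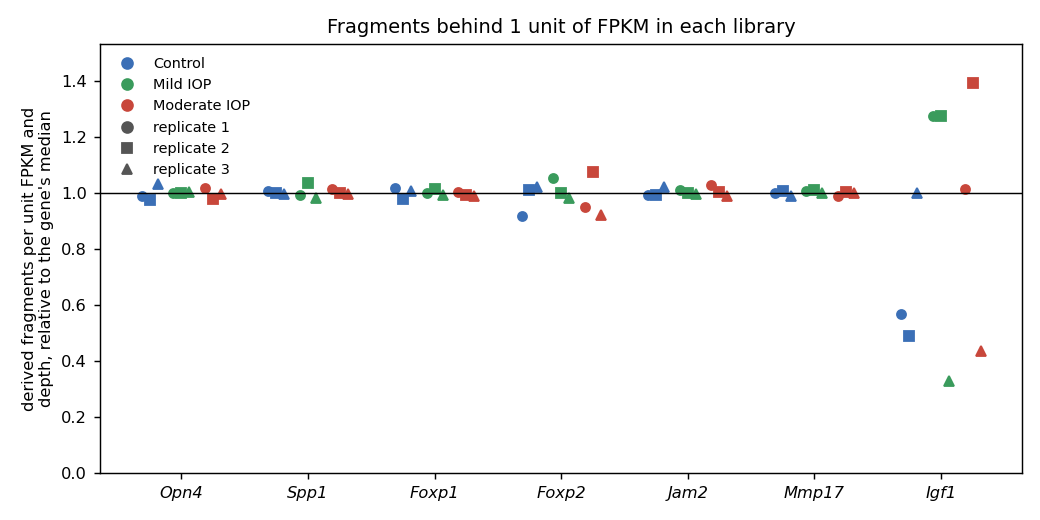
Derived fragments per unit of FPKM and of library depth, as a ratio to each gene's median over the 9 libraries (y axis, from 0), for the 7 tested markers (x axis); colour is the group, shape the replicate. The other 6 markers lie close to 1, and Igf1 lies between 0.328 and 1.39.

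Of 13 genes of the IGF system, 12 were tested and 0 called in any comparison. The highest were the binding proteins Igfbp2, at 175.3 ± 17.4, 172.9 ± 17.7 and 210.3 ± 10.4 scaled FPKM, and Igfbp4, at 44.3 ± 7.95, 52.0 ± 5.77 and 40.5 ± 10.4, in Control, Mild IOP and Moderate IOP. Their FDRs against Control were 0.975 and 0.758 in Mild IOP and 0.329 and 0.780 in Moderate IOP. Against Control the median over the list was 0.18 (Mild IOP) and 0.21 (Moderate IOP) on the log2 scale.

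Foxp1 and Foxp2 are forkhead transcription factors whose combination defines the F-type RGCs. Foxp1 (chr6:98925342-99435345) stood at 1.67, 2.65 and 3.81 scaled FPKM in Control, at 1.97, 3.76 and 2.53 in Mild IOP, and at 1.45, 1.81 and 2.99 in Moderate IOP. The groups overlapped, and log2 differences from Control were 0.03 (SE 0.312, −0.66 to 0.72, FDR = 0.988) for Mild IOP and −0.26 (SE 0.312, −0.94 to 0.43, FDR = 0.746) for Moderate IOP. Replicates of a group differed by more than the group means of 2.71, 2.75 and 2.08 did.

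Foxp2 (chr6:14901349-15441977) stood at 0.388, 0.760 and 0.858 scaled FPKM in Control, at 0.833, 0.975 and 0.987 in Mild IOP, and at 0.632, 0.787 and 0.311 in Moderate IOP. All 3 Moderate IOP libraries lay below all 3 Mild IOP libraries, and Control overlapped both. The log2 fold-change of Moderate IOP against Mild IOP was −0.30 (SE 0.272, −0.90 to 0.29, FDR = 0.564), and Control differed from neither past the threshold, with 0.22 (FDR = 0.849) for Mild IOP and −0.08 (FDR = 0.920) for Moderate IOP. Values rested on 10.4 to 45.7 derived fragments per library, the fewest of the tested markers. Of 6 genes in the F-type and Foxp list, 5 were tested and 0 called, and the highest, Coch and Irx4, averaged 15.7 and 7.001 scaled FPKM in Control, with Mild IOP at 21.0 and 7.28 and Moderate IOP at 20.2 and 6.80.

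Jam2 encodes junctional adhesion molecule 2, which marks the J-type direction-selective RGCs and is an endothelial junction protein elsewhere (chr16:84774123-84826375). It stood at 5.00, 4.77 and 5.73 scaled FPKM in Control, at 9.28, 7.50 and 8.99 in Mild IOP, and at 6.44, 7.62 and 7.37 in Moderate IOP. All 6 microbead libraries lay above all 3 Control libraries, and Mild IOP overlapped Moderate IOP between 7.50 and 7.62. Group means were 5.17 ± 0.502, 8.59 ± 0.955 and 7.14 ± 0.624. Mild IOP exceeded Control by 0.64 on the log2 scale (SE 0.188, 0.22 to 1.05), with an unadjusted limma p of 0.00601 that gave an FDR of 0.240 over all genes, and Moderate IOP by 0.40 (SE 0.188, −0.01 to 0.81, FDR = 0.339). Neither passed the threshold. Moderate IOP and Mild IOP differed by −0.23 (FDR = 0.515).

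Endothelial and pericyte markers were measured beside Jam2. Their summed level over 7 genes was 1.91 to 5.02 scaled FPKM in Control, 6.05 to 11.02 in Mild IOP and 5.74 to 6.65 in Moderate IOP, so that both microbead groups lay above Control, as they did for Jam2. Cdh5 and Cldn5, which define endothelial cells, were at 0 in all 9 libraries, 4 of the 7 genes were below 1 scaled FPKM in all libraries, and of the 2 tested, Kdr and the pericyte gene Rgs5, 0 were called. Rgs5, the highest of the list, averaged 1.09, 4.99 and 3.73 scaled FPKM and Kdr, a VEGF receptor, 1.76, 2.65 and 2.18. Of the genes below the filter, Pecam1 went the other way, at 0.398, 0.159 and 0. Tek averaged 0.116, 0.149 and 0.125, and Pdgfrb 0, 0.1545 and 0.0422. Their part in the Jam2 difference was not tested.

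In the JAM family, 6 genes were tested and 0 called against Control. Igsf11, an adhesion protein, was lower in Moderate IOP than in Mild IOP (log2 fold-change −0.86, FDR = 0.0979), at 0.295 ± 0.0722 against 1.37 ± 0.400 scaled FPKM. In that comparison 10.2% of all genes were called. Jam3 stood at 7.45 ± 3.86, 6.04 ± 2.68 and 9.81 ± 3.07 in Control, Mild IOP and Moderate IOP. Of 4 genes in the J-RGC and Tbr1 list, 1 was called: Cdh8, a cadherin, was lower in Moderate IOP than in Control, at 7.01 ± 0.982 against 12.5 ± 0.806 scaled FPKM (log2 fold-change −0.75, FDR = 0.0986), with Jam2 uncalled and in the other direction.

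Mmp17 encodes a membrane-anchored matrix metalloproteinase that marks ON-OFF direction-selective RGCs (chr5:129584214-129608211). It stood at 12.6, 13.2 and 15.3 scaled FPKM in Control, at 19.2, 12.5 and 10.4 in Mild IOP, and at 12.5, 11.2 and 16.8 in Moderate IOP. The groups overlapped throughout, with Mild IOP spanning both other groups. Mild IOP differed from Control by −0.01 on the log2 scale (SE 0.232, −0.52 to 0.50, FDR = 0.997) and Moderate IOP by −0.04 (SE 0.232, −0.55 to 0.47, FDR = 0.958), an interval of 0.683 to 1.39 times Control for the latter. Of 7 membrane-type metalloproteinases and inhibitors tested, 0 were called against Control, and Mmp24 was lower in Moderate IOP than in Mild IOP (8.54 ± 0.791 against 13.9 ± 1.77 scaled FPKM, FDR = 0.0614). In that comparison 10.2% of all genes were called. Timp2, an inhibitor and the highest of the list, stood at 44.4 ± 7.82, 56.7 ± 7.01 and 43.7 ± 1.60.

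Direction-selective RGC genes differed among themselves. Of 9 tested, 1 was called: Cartpt, a neuropeptide precursor of ON-OFF direction-selective RGCs, measured 408.4 ± 6.74 scaled FPKM in Control, with Mild IOP at 309.6 ± 66.6 and Moderate IOP at 884.5 ± 37.2. Moderate IOP exceeded Control by 1.11 on the log2 scale (FDR = 0.00585), and Mild IOP differed by −0.42 (FDR = 0.325). Moderate IOP exceeded Mild IOP by 1.54 (FDR = 0.00157). Of all genes, 1.84% were called in Moderate IOP against Control and 10.2% in Moderate IOP against Mild IOP, where 1 of 9 is near this background. Mmp17 and Fstl4, at 14.7 ± 3.71, 14.7 ± 0.356 and 13.2 ± 2.23, did not pass the test (Fstl4 FDR = 0.986 and 0.814 against Control). Hoxd10 and Fezf1 were at 0 in all 9 libraries.

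The libraries also differed in markers common to all RGCs. The summed level of 13 pan-RGC markers was 2162 to 2294 scaled FPKM in Control, 1601 to 2046 in Mild IOP and 3193 to 3358 in Moderate IOP. Sncg, the highest of them, averaged 911.2, 640.9 and 1389. In Moderate IOP 2 of 13 were called higher than in Control and 7 higher than in Mild IOP, against 1.84% and 10.2% of all genes called. Of the 13, 10 were higher in Moderate IOP than in Control. Rbpms2 (66.2 against 70.1), Pou4f2 (8.91 against 9.51) and Pou4f3 (3.09 against 3.69) were lower and not called. Amacrine cell markers summed to 1369 to 1421, 1424 to 1606 and 974.6 to 1138, with 2 of 7 tested called lower in Moderate IOP than in Control, against 1.84% of all genes called. Rod markers summed to 418.7 to 510.5, 279.1 to 320.4 and 281.0 to 317.6, bipolar markers to 28.6 to 30.1, 35.0 to 42.2 and 33.5 to 42.9, and lens markers to 233.4 to 307.1 in Control and at most 1.65 in the microbead groups. Derived depths were 4820000 to 8730000 fragments.

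Subtype markers were therefore also read relative to pan-RGC markers of the same library, as the ratio of a marker's FPKM to the median of the 13 pan-RGC markers. This ratio needs no scaling between libraries. For Spp1 it was 0.264, 0.174 and 0.181 in Control, 0.235, 0.329 and 0.279 in Mild IOP, and 0.558, 0.290 and 0.300 in Moderate IOP. Moderate IOP lay above Control but overlapped Mild IOP, with a ratio of geometric means of 1.80 against Control and 1.31 against Mild IOP (exact permutation p = 0.1 and 0.4, two-sided, where 0.1 is the smallest that 3 against 3 libraries can give). For Opn4 the ratio was 0.383, 0.439 and 0.349 in Control, 0.376, 0.570 and 0.468 in Mild IOP, and 0.342, 0.312 and 0.237 in Moderate IOP. All 3 Moderate IOP libraries lay below the 6 others, with a ratio of geometric means of 0.756 against Control (exact permutation p = 0.1). The ratio of Mmp17 also lay below Control in Moderate IOP, at 0.81 of it. With libraries scaled on the pan-RGC markers, the median log2 fold-change of all genes was −0.33 in that comparison. The share of all genes whose ratio to the pan-RGC median did not overlap was not computed.

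The same ratio for Jam2 was 0.0802, 0.0766 and 0.0832 in Control, 0.169, 0.179 and 0.148 in Mild IOP, and 0.0933, 0.102 and 0.0845 in Moderate IOP. The 3 groups did not overlap, and against Control the geometric means stood in a ratio of 2.06 for Mild IOP and 1.16 for Moderate IOP (exact permutation p = 0.1 for both). Jam2 was not alone in this: Mild IOP also lay above Control for Igf1 (2.12) and Foxp2 (1.82). The other markers had higher geometric means in Mild IOP too, with overlap: Opn4 1.196, Mmp17 1.231, Foxp1 1.285, Spp1 1.374 and Tbx20 2.275. With libraries scaled on the pan-RGC markers, the median log2 fold-change of all genes was 0.22 in that comparison. Jam2 was then at 0.86, which is 0.64 above that median. Relative to Opn4 in place of the pan-RGC median, Spp1 stood at 0.396 to 0.690 in Control, 0.577 to 0.625 in Mild IOP and 0.929 to 1.63 in Moderate IOP, and Jam2 at 0.175 to 0.238, 0.314 to 0.450 and 0.273 to 0.357. These ratios were chosen after the values were seen, among 36 comparisons of ratios, none of which could fall below 0.1.

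**Figure D4:**
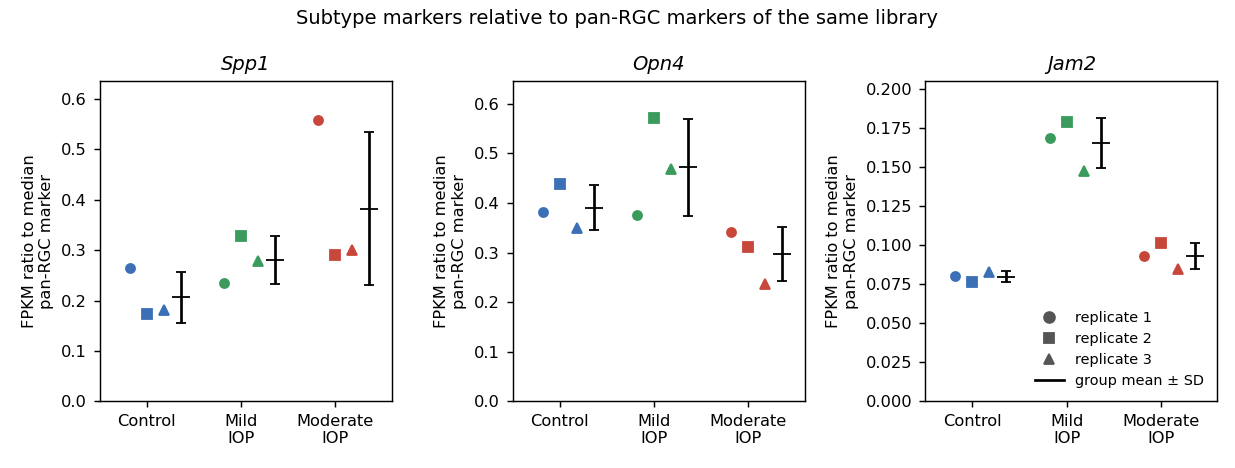
Ratio of the FPKM of Spp1, Opn4 and Jam2 to the median of 13 pan-RGC markers in the same library (y axis, from 0) by group (x axis); each point is 1 library, its shape the replicate number, and the black bar is the group mean ± SD. Moderate IOP libraries of Opn4 lie between 0.237 and 0.342, below all Control and Mild IOP libraries, and Mild IOP libraries of Jam2 lie between 0.148 and 0.179, above all others.

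When libraries were scaled on the pan-RGC markers instead of all genes, the median log2 fold-change of all genes moved by 0.21 (Mild IOP) and −0.33 (Moderate IOP) against Control and by −0.52 in Moderate IOP against Mild IOP, to 0.22, −0.33 and −0.54. The share of genes called lower became 20.9% in Moderate IOP against Control and 46.8% against Mild IOP. Spp1 was then 0.67 higher in Moderate IOP than in Control (FDR = 0.0840), 0.99 above the shifted median, and 0.30 higher than in Mild IOP (FDR = 0.328), 0.84 above the shifted median. Opn4 was −0.52 in Moderate IOP against Control (FDR = 0.0787) and −0.71 against Mild IOP (FDR = 0.0111), which is −0.20 and −0.17 from those medians. Jam2 was −0.80 (FDR = 0.00958) and Mmp17 −0.62 (FDR = 0.0469) in Moderate IOP against Mild IOP, which is −0.26 and −0.09 from the median. Whether a subtype marker counts as lower in Moderate IOP thus depended on the reference, and the direction of Spp1 was higher under both.

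Genes whose pattern over the 9 libraries was most like each marker were named by the mean absolute difference between centred log2 values, among 8180 genes with a mean of at least 5 scaled FPKM. For Spp1 they were Zbtb25 (0.121), Rbfa (0.162) and Calm3 (0.171), where the median over the 8180 genes was 0.480. For Opn4 they were Cyp51 (0.061), Tusc3 (0.069) and Cdc37 (0.072), with a median of 0.253. For Jam2 they were Tex10 (0.106), Wdr41 (0.109) and Spcs3 (0.111), with a median of 0.338. Mmp17 was nearest to Rnf219 (0.086), 1810041L15Rik (0.116) and Thoc6 (0.122), and Igf1 to Me2 (0.166), OTTMUSG00000016609 (0.179) and Ptp4a1 (0.245). Foxp1 was nearest to 2310035C23Rik (0.088), Gpr155 (0.123) and Aqr (0.131), and Foxp2 to Ints10 (0.042), Xrcc5 (0.070) and Rprd1b (0.072). This likeness is a description over 9 libraries of 3 pools.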

How the data were processed

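Gene expression was measured by RNA sequencing of purified mouse RGCs in 9 libraries, grouped by their labels. RGCs were isolated by negative panning against other cell types followed by Thy1.2 selection, and oligo-dT primed libraries were sequenced in paired-end reads. The authors aligned reads to mm10 and estimated expression with cufflinks. Each deposited table gives the FPKM that the authors obtained for a gene locus of 1 library, with its confidence interval. A strand setting is not given in the sources used here.

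FPKM were summed per symbol and scaled by median-of-ratios factors (0.983 to 1.06). Values were tested as log2(scaled FPKM + 1) with limma 3.58.1 in R 4.3.3 over all 9 libraries, with a trend of variance, after leaving out symbols with a failed estimate or a mean below 0.5, and adjusted by the Benjamini-Hochberg method. Fragments were derived as the square of 2 × FPKM / (upper bound − FPKM), and depth from genes of 1 transcript. This derivation covers counting error only. Python 3.11.15 (pandas 2.3.3, numpy 2.4.6, matplotlib 3.10.9) served for tables and figures. The fit was tested on simulated data. The markers and gene lists were chosen with earlier results of these data known. Beside the 8 markers, the rule named genes of a list that were called or among its 2 highest, at most 6 per list. Amacrine, rod, bipolar and lens lists are given as sums only, and the pan-RGC list as sums with a few genes named. Kcng4, Cx3cr1, Tmem119, P2ry12, C1qa, Itgam, Cd44, Hoxd10, Fezf1, Cdh5 and Cldn5 fall outside the rule and were named after their values were seen. So do Rbpms2, Pou4f2, Pou4f3, Csf1r, Cd68, Aif1, Ptprc, Tpbg, Il1rapl2, Pecam1, Tek and Pdgfrb. Alternatives covered scaling, pseudocount, filter, loci, failed estimates, variance, a replicate block and leaving out each library.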

Additional observations from a re-analysis of the deposited data

Results flagged for a closer look

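Spp1 differed between the Moderate IOP pool and the Mild IOP pool. Against the same Control libraries the log2 fold-change was 1.05 in Moderate IOP and 0.14 in Mild IOP, and the difference between the 2 fold-changes, 0.91 (SE 0.229, FDR = 0.0439 by limma), is what drew attention. It is the comparison of Moderate IOP with Mild IOP, in which 10.2% of all genes were called. The call held in 6 of 9 omissions of 1 library. With 1 pool per group, a difference between pools cannot be told apart from an effect of pressure. All 3 Moderate IOP libraries exceeded all 3 Mild IOP libraries. Scaled on the pan-RGC markers, the difference was 0.30 (FDR = 0.328), where the median of all genes was −0.54 and Spp1 lay 0.84 above it.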

How the results depend on the processing

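Direction and side of the threshold were the same in 392 of 432 alternative values of the tested markers, and 23 values reversed, all in markers that were not called. For all genes, calls in Mild IOP against Control were 52, and 15 with pan-RGC scaling, 24 with no filter, 85 with a mean of at least 5, 11 with the variance of the compared groups alone and 15 with no trend. In Moderate IOP against Control they were 240, and 2837 with pan-RGC scaling (109 higher, 2728 lower), 134 with the compared groups alone and 144 with no trend. Between Moderate and Mild IOP they were 1324, and 6336 with pan-RGC scaling (214 higher, 6122 lower) and 839 with no trend. With no scaling the split in that comparison was 731 higher and 662 lower, against 917 and 407. Leaving out 1 library gave 15 to 183, 61 to 287 and 519 to 1399 calls.

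Called markers in Moderate IOP against Control were 1, and 2 with pan-RGC scaling and 0 with no filter (Spp1 FDR = 0.121), the compared groups alone (0.143) or no trend (0.115). Between Moderate and Mild IOP the count was 1 (Spp1), and 3 with pan-RGC scaling (Opn4, Jam2 and Mmp17, all lower, with Spp1 no longer called), where 48.5% of all genes were called. Leaving out 1 library gave 0 to 1 in both, and 0 in Mild IOP against Control. The causes were not tested.

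Reversed log2 fold-changes in Mild IOP against Control were 0.0385 (Mmp17, no scaling), 0.002 and 0.0428 (Opn4 and Mmp17, upper-quartile scaling) and 0.18 and 0.22 (Opn4 and Mmp17, pan-RGC scaling). Igf1 in Moderate IOP against Mild IOP reversed to −0.31 with pan-RGC scaling. Leaving out 1 library gave ranges that crossed 0 in Mild IOP against Control of −0.17 to 0.0554 (Opn4), −0.19 to 0.24 (Foxp1) and −0.24 to 0.17 (Mmp17), in Moderate IOP against Control of −0.21 to 0.0457 (Foxp2) and −0.19 to 0.0758 (Mmp17), and in Moderate IOP against Mild IOP of −0.20 to 0.0217 (Opn4), −0.21 to 0.20 (Mmp17) and −0.29 to 0.57 (Igf1).

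With a replicate block, all genes gave 25, 135 and 1120 calls in the 3 comparisons, and Spp1 was still called in Moderate IOP against Control (FDR = 0.0938). Libraries of the same replicate number did not deviate together (correlations −0.005 to 0.044, mean 0.012, against −0.006 for different numbers), so the samples share only a number.

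Derived fragments per library, 0.0607 to 4.05 for Tbx20 and 10.4 to 45.7 for Foxp2, limit the precision of these genes.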
